A study of Mus musculus with 20 samples.

Results

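Kinesins are motor proteins that bind microtubules, and their genes were followed here in normal mouse skin and in carcinomas lacking p53. The members were the 38 kinesin genes named for this purpose, Kifap3 among them, which is no motor itself but a subunit of the kinesin-2 motor. A gene entered through the probesets annotated to it alone, and the probeset with the highest mean over the 20 arrays stood for it. All 38 were found among the 18193 genes of the array. They were divided by their known roles into 11 mitotic kinesins, 18 transport kinesins and 9 others.

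The arrays were Affymetrix MOE430 2.0, hybridized with total RNA of mice of the FVB strain, and their values are log2 RMA values, so that a difference of 1 is a doubling. The 5 control samples were skin of mice 2 months of age. The 15 tumors were squamous cell carcinomas whose age is not in the labels, 7 from K14Cre;p53loxP/loxP mice, called Trp53 tumors, and 8 from mice that were also pRbloxP/loxP, called double-mutant tumors. Keratin 14, whose promoter drives Cre in these mice, is made by the basal cells of stratified epithelia. Deletion was thus directed at these cells and not at the stroma of the tumors, and where it took place was not measured here. By histology 6 tumors were poorly differentiated, 4 were mixed, and 5 were undifferentiated or spindle cell carcinomas (3 and 2). Among the Trp53 tumors 2 were poorly differentiated, 3 mixed and 2 undifferentiated or spindle, and among the double-mutant tumors the numbers were 4, 1 and 3. The labels do not say whether the tumors came from different mice, so every p-value measures the spread between these samples.

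Kinesins turn the energy of ATP into steps along a microtubule or into the removal of its ends. The mitotic kinesins build the spindle, move and align the chromosomes and complete cytokinesis, and many of them are made mainly in dividing cells. The transport kinesins carry vesicles, organelles, messenger RNA and the parts of cilia, and they work in cells that do not divide, long axons above all.

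The medians of the arrays over all genes lay between 6.85 and 7.05. The markers of epithelium had a mean between 11.98 and 12.27 in skin and between 5.03 and 12.83 in the tumors. The 12 skeletal muscle markers had a mean between 13.20 and 13.76 in skin and between 5.23 and 8.79 in the tumors, and all of them fell, by 8.55 for Myh4 and by 8.03 for Tnnt3. All 5 adipocyte markers fell as well, by 7.83 for Adipoq and by 5.46 for Cidec. The difference between the 3' and the 5' probeset of Actb, a sign of RNA quality, was largest in skin sample 2 at 1.19 and lay between 0.50 and 0.69 in the other skin samples and between 0.24 and 0.82 in the tumors. Rb1, one of the targeted genes, ranged from 8.95 to 9.26 in skin, from 7.85 to 8.84 in the Trp53 tumors and from 6.55 to 8.14 in the double-mutant tumors. The position of its probeset relative to the deleted part is not known here, and Trp53 was not analysed.

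The promoters of the members were read from RefSeq (GRCm38.p6), 250 bases before to 50 bases after each start, for 31 members with 35 promoters. The letters searched, on both strands, were the CCAAT box, the hexamer TTTGAA, which is the core of the cell cycle genes homology region (CHR) of promoters that are active in G2 and mitosis, and the E2F-like letters TTTCGCGC, TTTGGCGC, TTTCCCGC and TTTGCCGC. TTTGAA was in 9 of 10 mitotic promoters, in 1 of 14 transport promoters (7.14%, Kif1a) and in 2 of 11 promoters of the others (18.2%), against 17.9% of all 32851 promoters. CCAAT and TTTGAA together were in 6 of 10 mitotic promoters, in 0 of 14 transport promoters and in 6.95% of all promoters. Of the promoters of the others 2 of 11 (18.2%), those of Kif26b and Kif27, held both. The 6 mitotic promoters were those of Kif11, Kif14, Kif22, Kif23, Kif4 and Kifc1. E2F-like letters were in 2 of 10 mitotic promoters, Kif15 and Kif18a, in 0 of 14 transport promoters and in 2.26% of all promoters. A match is a description of the letters and no evidence of a bound factor.

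Of the mitotic kinesins 4 promoters are shown for the arrangement of these letters, and that of Kif21a, the transport kinesin with the largest fall, for their absence. They lie at chr19:37376132-37376431 (plus strand), chrX:100625815-100626114 (plus strand), chr7:127042371-127042670 (minus strand), chr19:34922108-34922407 (plus strand) and chr15:91049902-91050201 (minus strand). Each is written 5' to 3' in the direction of the gene, and capitals mark CCAAT or TTTGAA or their reverse complements ATTGG and TTCAAA.
Kif11: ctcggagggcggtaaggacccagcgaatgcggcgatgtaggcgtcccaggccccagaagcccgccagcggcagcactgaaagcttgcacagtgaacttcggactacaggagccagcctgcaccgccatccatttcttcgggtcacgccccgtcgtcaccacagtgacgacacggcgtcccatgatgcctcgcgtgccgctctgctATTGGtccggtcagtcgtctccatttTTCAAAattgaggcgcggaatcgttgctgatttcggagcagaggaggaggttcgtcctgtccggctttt
Kif4: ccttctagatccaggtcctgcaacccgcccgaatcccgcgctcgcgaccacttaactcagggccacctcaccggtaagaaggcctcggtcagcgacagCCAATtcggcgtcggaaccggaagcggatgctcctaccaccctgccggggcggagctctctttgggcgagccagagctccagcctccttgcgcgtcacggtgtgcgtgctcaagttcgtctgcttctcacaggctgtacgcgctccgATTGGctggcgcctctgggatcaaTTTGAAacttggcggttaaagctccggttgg
Kif22: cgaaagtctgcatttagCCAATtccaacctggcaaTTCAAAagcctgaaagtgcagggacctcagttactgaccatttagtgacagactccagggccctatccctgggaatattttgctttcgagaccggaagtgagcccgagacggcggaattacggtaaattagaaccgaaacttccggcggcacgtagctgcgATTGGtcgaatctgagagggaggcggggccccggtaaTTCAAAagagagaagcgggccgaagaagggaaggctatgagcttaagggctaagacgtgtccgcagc
Kif20b: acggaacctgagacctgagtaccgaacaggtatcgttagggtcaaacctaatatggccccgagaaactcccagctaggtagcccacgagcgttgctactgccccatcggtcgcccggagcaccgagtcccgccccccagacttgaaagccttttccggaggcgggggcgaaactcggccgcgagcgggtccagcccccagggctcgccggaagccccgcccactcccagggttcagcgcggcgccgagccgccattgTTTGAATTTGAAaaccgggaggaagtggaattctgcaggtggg
Kif21a: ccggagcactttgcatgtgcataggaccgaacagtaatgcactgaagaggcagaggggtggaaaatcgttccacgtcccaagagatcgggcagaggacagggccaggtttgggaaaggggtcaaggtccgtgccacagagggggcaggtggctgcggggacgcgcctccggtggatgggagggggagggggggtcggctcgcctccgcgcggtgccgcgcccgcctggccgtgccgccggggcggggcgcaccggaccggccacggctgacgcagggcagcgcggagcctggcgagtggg
In Kif11 the letters ATTGG began at base -45 from the start and TTCAAA at base -19. In Kif22 ATTGG began at base -54 and TTCAAA at base -17, with a further pair upstream. In Kif4 ATTGG began at base -5 and TTTGAA at base 20, and in Kif20b TTTGAA stood side by side at bases 8 and 14. In the window of Kif21a none of the letters was found, which says only that they are not in these 300 bases.

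Mitotic kinesins were compared first between the 15 tumors and the 5 skin samples. Of 11 mitotic kinesins 9 rose and 0 fell, where 17.7% of all genes rose and 18.0% fell at an adjusted p under 0.05, and the median log2 fold change of the 11 was 2.11. In all 9 every tumor lay above every skin sample, which held for 6.9% of all genes, while every tumor below every skin sample was found for 6.38%. The change ran from 1.08 for Kif23 to 3.07 for Kif2c. In bulk tissue fewer cells of a type and less RNA per cell cannot be told apart.

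Kif2c, which takes apart microtubule ends at the centromere, had values of 4.99, 5.44, 5.30, 6.05 and 5.92 in skin and of 7.97 to 9.51 in the tumors, with a median of 8.51. The lowest tumor lay almost 2 units above the highest skin sample. The log2 fold change was 3.07 ± 0.23 (SE, 15 against 5 samples), 8.42-fold, with an adjusted p of 2.68e-09.

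Kif20a and Kif20b are kinesins of the central spindle, where the cell is cut into its daughters. Kif20a had values of 5.35, 5.37, 5.12, 6.31 and 5.48 in skin and of 7.17 to 9.61 in the tumors, with a median of 8.46. It rose by 3.01 ± 0.32 (adjusted p = 3.16e-07). Kif20b was at 4.59, 4.71, 4.97, 5.50 and 5.23 in skin and between 6.97 and 9.10 in the tumors, with a median of 8.05. It rose by 3.01 ± 0.27 (adjusted p = 3.13e-08). For both genes skin sample 4 was the highest of the skin samples, and it was still below every tumor.

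Kif11, the motor that pushes the spindle poles apart, had values of 5.45, 4.90, 5.05, 5.49 and 5.37 in skin and of 6.72 to 8.58 in the tumors, with a median of 7.79. It rose by 2.53 ± 0.28, 5.79-fold (adjusted p = 6.09e-07). The chromokinesins, which bind chromosome arms, followed with 2.25 for Kif22 and 2.11 for Kif4. Kif18a, which damps the movements of aligned chromosomes, rose by 2.03. Kifc1, a motor that moves to the minus end and gathers the spindle poles, rose by 1.66, and its probeset may also take up RNA of a near-identical gene copy, so that its value is uncertain. Kif23, the motor of the centralspindlin complex, rose least of the 9, from 7.24, 7.26, 7.29, 7.34 and 7.61 in skin to between 7.62 and 9.16 in the tumors, and its lowest tumor was only just above skin sample 5.

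Of the mitotic kinesins 2 did not pass the test. Kif15, which holds the bipolar spindle beside Kif11, stood at 0.18 ± 0.12 on the log2 scale (adjusted p = 0.236), and Kif14, which acts in the midbody, of 0.05 ± 0.08 (adjusted p = 0.656). Each has a single probeset, and both read low, between 4.89 and 5.72 for Kif15 and between 3.11 and 3.68 for Kif14, while the deposited values run from 2.34 to 14.72. The files give no detection calls, so whether these probesets measured their transcripts is not known. Both promoters hold TTTGAA, with CCAAT in Kif14 and E2F-like letters in Kif15.

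Genes that work with the mitotic kinesins were counted beside them. Among all genes 17.7% rose and 18.0% fell. Of 23 listed partners, from checkpoint and kinetochore proteins to cytokinesis regulators, 22 rose and 0 fell, with a median of 2.59. Bub1, a kinase of the spindle checkpoint, rose by 4.30 and Ect2, the activator of the contractile ring, by 3.43. Of 3 kinesins that are no members, 2 rose, Cenpe of the kinetochore by 2.66 and Kif18b by 1.95. All 6 proliferation markers rose too, among them Top2a by 2.66 and Ccna2 by 2.63, and their mean was 8.51 to 8.93 in skin and 9.99 to 11.56 in the tumors. How far the share of dividing cells accounts for the rise of the mitotic kinesins was not tested.

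**Figure D1:**
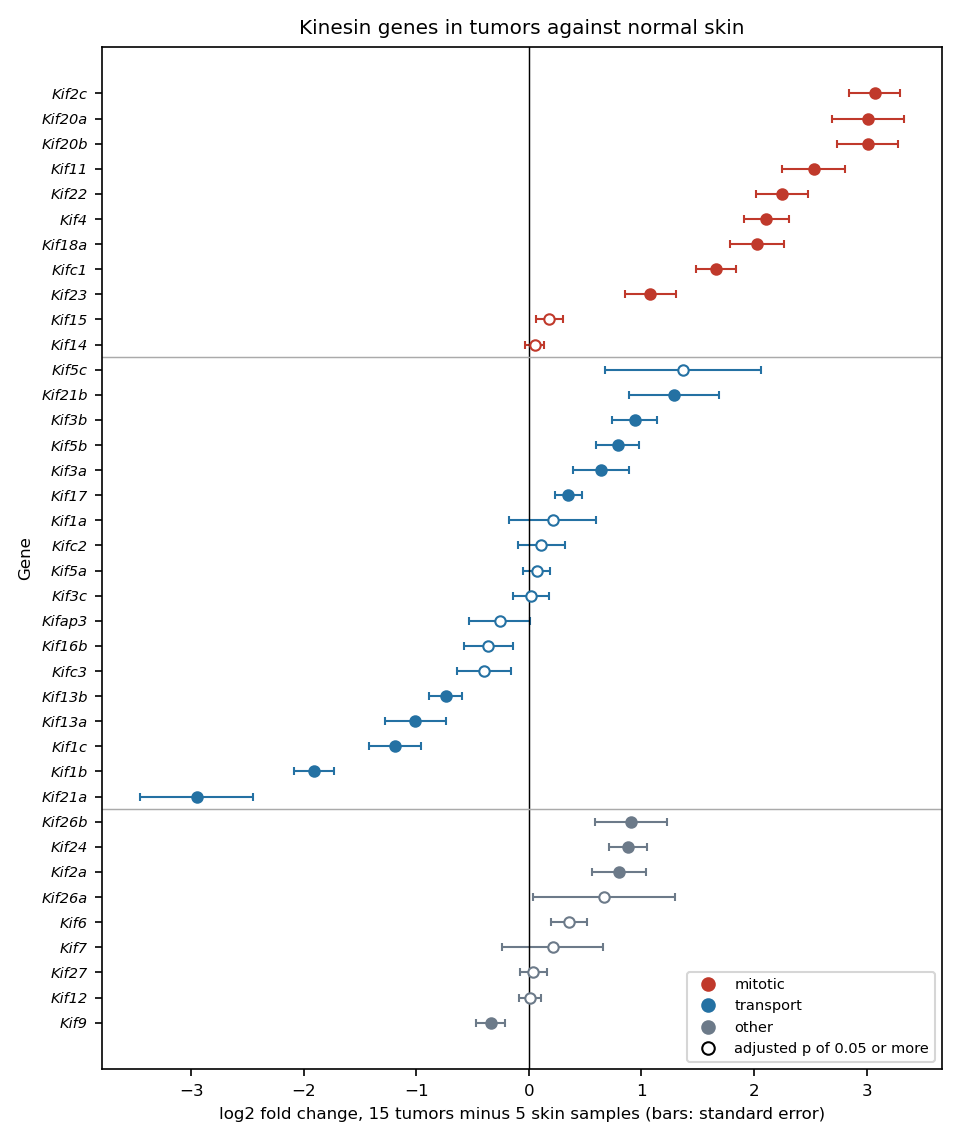
Log2 fold change of each kinesin gene between 15 tumors and 5 skin samples, on the horizontal axis, with bars for the standard error. Open points did not pass the test, and colours mark the mitotic, transport and other kinesins. The mitotic kinesins stand at 1.08 or above except for Kif14 and Kif15, while the transport kinesins run from -2.95 to 1.37.

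Transport kinesins went both ways between tumors and skin. Of 18, 5 rose and 5 fell, 8 did not pass the test, and the median log2 fold change was 0.04, where 17.7% of all genes rose and 18.0% fell. In 1 of them, Kif3b, every tumor lay above every skin sample, and in 3, Kif1b, Kif1c and Kif21a, every tumor lay below. Among all genes 6.9% lay above and 6.38% below in this way.

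Kif21a, a kinesin-4 motor that slows the growth of microtubules and is known from the axons of eye muscle nerves, fell most. It had values of 10.76, 9.96, 10.66, 10.43 and 10.25 in skin and of 5.72 to 9.35 in the tumors, with a median of 7.77. The groups did not overlap. The log2 fold change was -2.95 ± 0.50, 7.71-fold lower (adjusted p = 0.000106).

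The other kinesins that fell were all of the kinesin-3 family, which carries vesicles and organelles. Kif1b, which moves synaptic vesicle precursors and mitochondria, was at 10.28, 10.68, 10.68, 10.44 and 11.04 in skin and between 8.08 and 9.28 in the tumors, with a median of 8.73. It fell by 1.91 on the log2 scale (SE 0.18, adjusted p = 4.43e-08). Kif1c was at 10.78, 10.67, 10.69, 10.67 and 10.68 in skin and between 8.45 and 10.35 in the tumors, with a median of 9.57. It fell by 1.19 (SE 0.23, adjusted p = 0.000409), and the skin samples differed by far less among themselves than the tumors did. Kif13a, with a log2 fold change of -1.01, and Kif13b, with -0.74, fell in addition. Kif16b of the same family stood at -0.36 and Kif1a at 0.21, and neither passed the test.

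Kif21b, the kinesin-4 relative of Kif21a, moved the other way. It was at 6.16, 5.81, 6.51, 6.70 and 6.75 in skin and between 6.58 and 9.93 in the tumors, with a median of 7.48, so that the groups overlapped. The log2 fold change was 1.29 ± 0.40 (adjusted p = 0.0156). Without skin sample 2 it was 1.15 and did not pass (adjusted p = 0.0545). With the median over its 2 probesets it was 0.46 and did not pass either (adjusted p = 0.119). The probeset not used, with a mean of 4.24 against 7.35, stood at -0.37.

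Of the kinesin-2 motors, which carry cargo to the tip of the cilium and along axons, Kif3b rose by 0.94, Kif3a by 0.64 and Kif17, which works as a pair of its own kind, by 0.35. Kif3c, at 0.02, and Kifap3, the subunit that binds the cargo, at -0.26, did not pass the test against skin over all tumors. Of the kinesin-1 heavy chains, the conventional motors of long transport, Kif5b rose by 0.79, while the neuronal Kif5a, at 0.07, and Kif5c, at 1.37 ± 0.69, did not pass. Kif5c differed most between tumors of all members, from 4.92 to 9.97, with an SD of 1.58. The minus-end motors Kifc2, at 0.11, and Kifc3, at -0.40, did not pass either.

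The calls of the transport kinesins depended on the probeset and on single skin samples. With the median over all probesets of a gene, 1 rose and 3 fell in place of 5 and 5. Of all 18193 genes 3543 rose and 3028 fell in that setting. The 6 probesets of Kif5b ran from -1.91 to 1.55, 5 of the 7 of Kif1b were below 0, and the 3 of Kif21a ran from -2.95 to 0.12. For Kif21a the value of 0.12 came from a probeset that read low, with a mean of 3.88. The remaining probeset of Kif21a, with a mean of 7.71, stood at -2.72. The 4 of Kif3b ran from 0.01 to 0.94. The value of 0.01 came from a probeset almost as bright as the one used, with a mean of 6.9 against 6.94. Without skin sample 2 the number that rose was 2, and without skin sample 1 or skin sample 4 it was 3.

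The fall of muscle and adipocyte markers ran along with the fall of Kif21a, Kif1b and Kif1c between skin and tumors, and their part in it was not tested.

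Among the 9 other kinesins, 3 rose and 1 fell, where 17.7% of all genes rose and 18.0% fell. Their median log2 fold change was 0.36. Kif24, a centriole protein that removes microtubule ends and holds back the growth of cilia, was at 6.0, 6.14, 5.50, 5.82 and 5.58 in skin and between 6.04 and 7.41 in the tumors, with a median of 6.66. It rose by 0.88 ± 0.17 (adjusted p = 0.000317), with a small overlap between the groups, and with the median over its probesets the value was 0.08 and did not pass. The probesets of Kif24 that were not used read low, with means of 4.16 and 3.35. Kif2a, which shortens microtubules at the spindle poles and in axons, was at 8.01, 8.09, 8.28, 8.03 and 8.43 in skin and between 8.28 and 9.87 in the tumors, with a median of 8.95. It rose by 0.80 ± 0.24 (adjusted p = 0.0143). Kif26b, an atypical kinesin of the kinesin-11 family that binds microtubules without moving, rose by 0.91, and Kif9, known from motile cilia, fell by 0.34. The only probeset of Kif9 read low, between 4.57 and 5.6. With centred arrays or the replicate block 0 of the 9 fell. Kif6 at 0.36, Kif26a at 0.67, Kif7 at 0.21, Kif27 at 0.04 and Kif12 at 0.01 did not pass the test.

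The contrast between mitotic and transport kinesins was seen in every tumor. The median difference from the skin mean over the 11 mitotic kinesins was between 1.40 and 2.79 in the tumors, with a median of 2.00, and between -0.10 and 0.16 in the skin samples. Over the 18 transport kinesins it was between -0.24 and 0.39 in the tumors and between -0.10 and 0.10 in skin. The mitotic median exceeded the transport median by 1.34 to 3.02 in the tumors and by at most 0.19 in a skin sample. The highest mitotic medians were those of double-mutant tumor 3, undifferentiated, at 2.79 and double-mutant tumor 2, poorly differentiated, at 2.77, and the lowest that of double-mutant tumor 7, poorly differentiated, at 1.40. These medians are a description and carry no test.

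**Figure D2:**
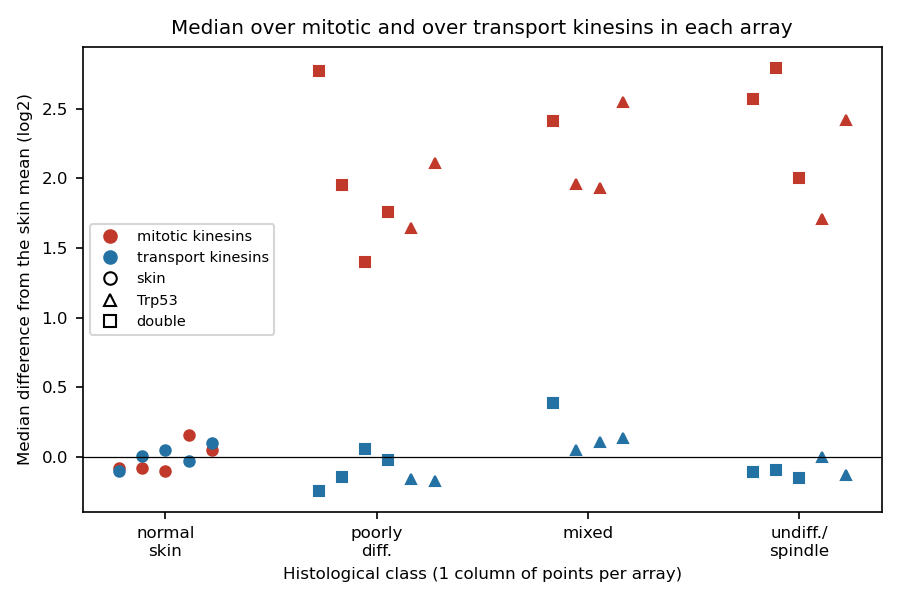
Median over the 11 mitotic (red) and the 18 transport kinesins (blue) of the difference from the skin mean, in log2 units, with 1 red and 1 blue point for each array and the arrays grouped by histological class. All 15 tumors have a mitotic median of 1.40 or above, and their transport medians lie between -0.24 and 0.39.

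Each histological class was next set against skin. These comparisons share the skin samples, so their values are given side by side and are not independent. Of the 11 mitotic kinesins, the same 9 rose and 0 fell in poorly differentiated (where 19.2% of all genes rose and 19.6% fell), mixed (21.9% and 21.5%) and undifferentiated or spindle tumors (22.0% and 20.2%). Their medians were 1.87, 2.23 and 2.35. Of the 18 transport kinesins 4 rose in each of the classes, and 7, 5 and 6 fell. Kif21a was at -2.18 in poorly differentiated, -3.02 in mixed and -3.81 in undifferentiated or spindle tumors, and Kif1b at -1.97, -1.90 and -1.85. Without skin sample 4 the transport kinesins that rose in poorly differentiated tumors were 2 in place of 4.

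Among the kinesin-2 genes Kif3c and Kifap3 fell against skin in poorly differentiated tumors and in no other class. Against skin Kif3c was at -0.34 in poorly differentiated tumors, where it fell (adjusted p = 0.0170), at 0.19 in mixed tumors and at 0.32 in undifferentiated or spindle tumors, where it rose (adjusted p = 0.0270). Kifap3 fell by 0.84 in poorly differentiated tumors (adjusted p = 0.00144) and stood at 0.27 and 0.03 in the other classes. The differences between the classes themselves were tested by grade.

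**Figure D3:**
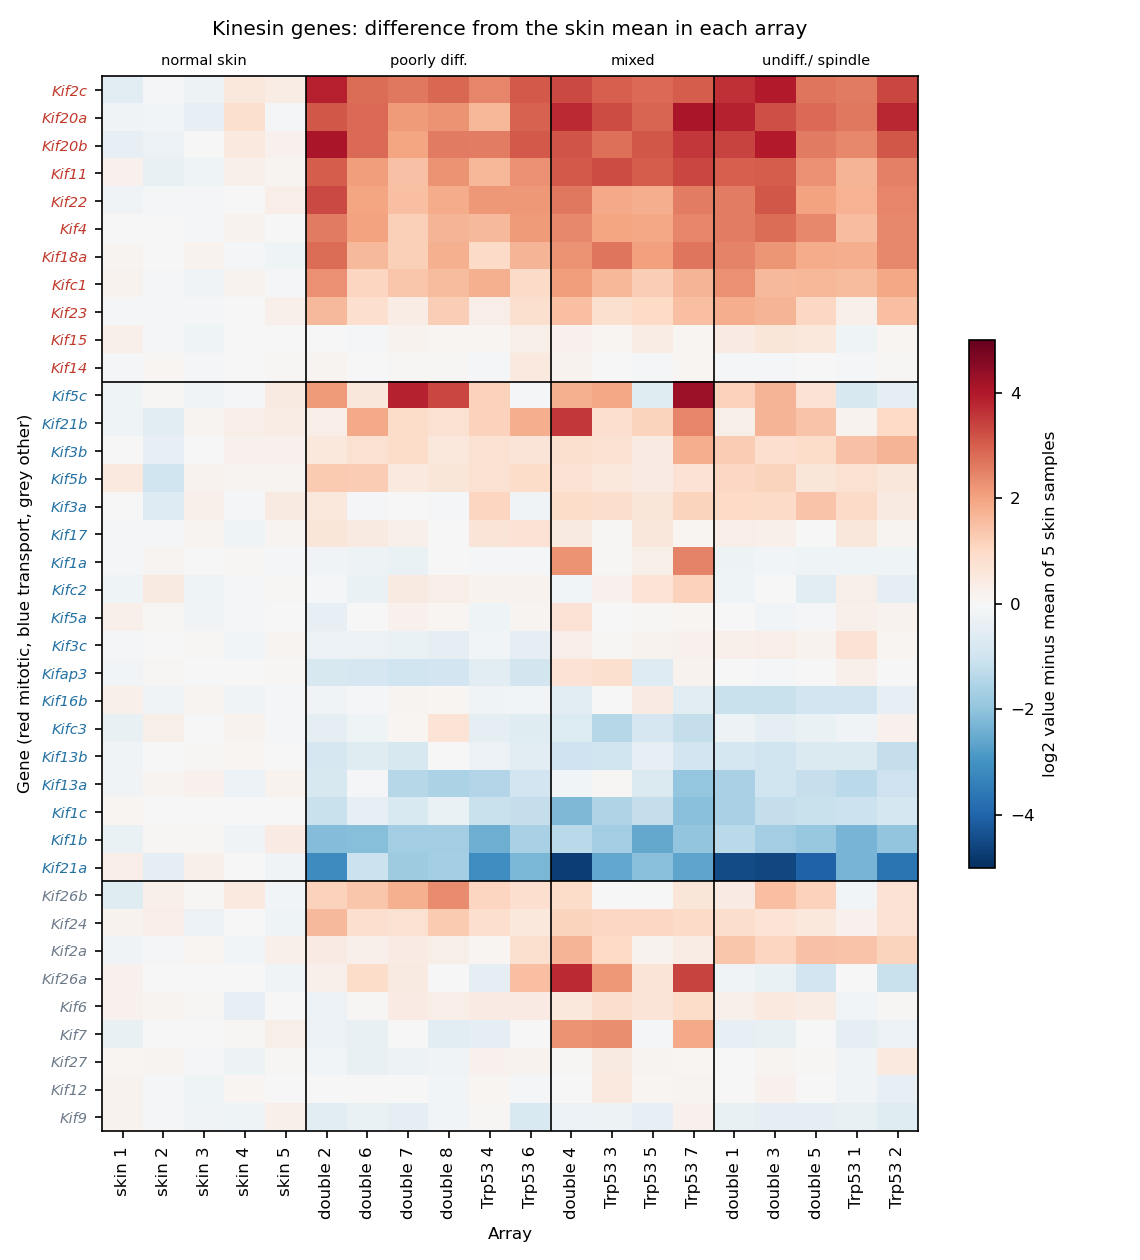
Difference of each kinesin gene (rows) from its mean over 5 skin samples in each of the 20 arrays (columns), in log2 units from blue (below skin) to red (above skin). Columns are grouped by histological class and rows by mitotic, transport and other kinesins, and double stands for double-mutant tumors. The mitotic rows are red in all tumors except for Kif14 and Kif15, Kif21a and Kif1b are blue in all tumors, and Kif7 and Kif26a are red in double-mutant tumor 4 and Trp53 tumors 3 and 7.

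Tumor grade was compared as 5 undifferentiated or spindle against 6 poorly differentiated carcinomas, with the mixed tumors left out. The mitotic kinesins did not pass the test in either direction (0 of 11), where 12.7% of all genes rose and 9.9% fell, and the median log2 fold change was 0.31. At an unadjusted p under 0.05 the number was 1, Kif20a, where 3493 of all 18193 genes rose and 2698 fell. The methods' t-test after adjustment also called 0 mitotic kinesins. Of the transport kinesins 4 rose and 2 fell, and the 4 were kinesin-2 genes, Kifap3, Kif3a, Kif3c and Kif3b. Of the others, Kif2a rose.

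Kif20a had values of 9.39, 8.75, 8.37, 8.18 and 9.29 in undifferentiated or spindle tumors and of 7.17 to 8.64 in poorly differentiated tumors, with a median of 8.05. The groups overlapped, and the log2 fold change was 0.79 ± 0.31 (adjusted p = 0.0898). Kif4 had a difference of 0.48 ± 0.27 (adjusted p = 0.238) and Kif18a of 0.49 ± 0.28 (adjusted p = 0.258). Without double-mutant tumor 2 Kif18a passed the test, at 0.71 (adjusted p = 0.0266), and with the mixed tumors counted as undifferentiated Kif20a passed at 0.89 (adjusted p = 0.0338). A difference of the mitotic kinesins between grades that misses the threshold is not shown to be absent.

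Kifap3 was at 9.02, 8.94, 8.98, 9.25 and 8.96 in undifferentiated or spindle tumors and between 7.99 and 8.47 in poorly differentiated tumors, with a median of 8.12. The groups did not overlap, and against skin, at 8.87 to 9.07, the undifferentiated or spindle tumors had a difference of 0.03. The share of all genes without overlap between these grades was not counted. How unusual it is, here or for Kif3c, Kif16b and Kif2a below, is therefore not known. Kifap3 rose by 0.87 ± 0.11 (adjusted p = 0.000158).

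Kif3c was at 8.13, 8.23, 8.05, 8.60 and 7.98 in undifferentiated or spindle tumors and between 7.39 and 7.73 in poorly differentiated tumors, with a median of 7.56. Again no tumor of one grade reached the other. The log2 fold change was 0.65 ± 0.12 (adjusted p = 0.00252). Kif3a rose by 0.75 ± 0.24 (adjusted p = 0.0434) and Kif3b by 0.56 ± 0.16 (adjusted p = 0.0259), each with more spread. The count of 4 fell to 2, Kifap3 and Kif3c, without double-mutant tumor 1, double-mutant tumor 8 or Trp53 tumor 1, and with the median over probesets or the methods' t-test it was 2 as well.

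Kif16b, an endosome motor of the kinesin-3 family, moved down with grade. It was at 6.69, 6.70, 6.87, 6.85 and 7.40 in undifferentiated or spindle tumors and between 7.65 and 7.93 in poorly differentiated tumors, with a median of 7.71. The groups did not overlap, and the log2 fold change was -0.86 ± 0.14 (adjusted p = 0.000894). With the median over its probesets it was -0.63 (adjusted p = 0.0578), and with the mixed tumors counted as undifferentiated -0.53 (adjusted p = 0.114). Kif21a fell with a log2 fold change of -1.63 ± 0.47 (adjusted p = 0.0276), from 7.28 to 9.35 in poorly differentiated to 5.87 to 8.10 in undifferentiated or spindle tumors, and it no longer passed without double-mutant tumor 1, 3, 5, 6, 7 or 8 or by the methods' t-test, where 1 transport kinesin remained lower. With the mixed tumors counted as undifferentiated 0 transport kinesins were lower.

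Kif2a was at 9.56, 9.25, 9.62, 9.58 and 9.28 in undifferentiated or spindle tumors and between 8.28 and 8.95 in poorly differentiated tumors, with a median of 8.51. All of the former lay above all of the latter, and the log2 fold change was 0.92 ± 0.13 (adjusted p = 0.000423). Kif26a had a difference of -0.97 ± 0.33 (adjusted p = 0.0587), from 7.29 to 9.25 in poorly differentiated and 6.66 to 7.73 in undifferentiated or spindle tumors, and it passed at -1.15 without Trp53 tumor 4 (adjusted p = 0.0204) and at -0.97 when genes with a mean under 5 were left out (adjusted p = 0.046). Kif26b had a difference of -0.69 ± 0.33 (adjusted p = 0.165).

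The genes of cilium transport, the trains that kinesin-2 carries along the cilium, were listed with their 19 measured members. By grade, where 12.7% of all genes rose and 9.9% fell, 9 of them rose and 0 fell, with a median of 0.39, among them Dync2li1 of the returning dynein by 1.52 and Ift57 by 1.37. Of 16 cargo adaptors of kinesins 3 rose and 2 fell, with Fez1, an adaptor of kinesin-1 in axons, at 4.11 and Klc3, a kinesin light chain, at -3.01. Of 19 genes of dynein and dynactin, the motor that runs the other way, 1 rose and 1 fell, Dctn5 by 0.45 and Bicd2 with -0.93.

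Cell type markers and RNA quality moved with grade as well. By grade 12.7% of all genes rose and 9.9% fell. All 8 epithelial markers fell, with -7.38 for Krt14 and -6.91 for Trp63, and their mean was 12.15 to 12.83 in poorly differentiated and 5.03 to 8.29 in undifferentiated or spindle tumors. Of the macrophage markers 4 of 6 rose, with Cx3cr1 at 3.61 and Fcgr1 at 2.61, and their mean was 7.21 to 9.89 and 10.50 to 10.98. Of the endothelial markers 4 of 6 rose, with Cdh5 at 1.64 and Emcn at 1.37. The Actb 3' to 5' difference was 0.42 to 0.82 in poorly differentiated and 0.24 to 0.38 in undifferentiated or spindle tumors. Their part in the differences of Kifap3, Kif3c, Kif2a and Kif16b was not tested.

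**Figure D4:**
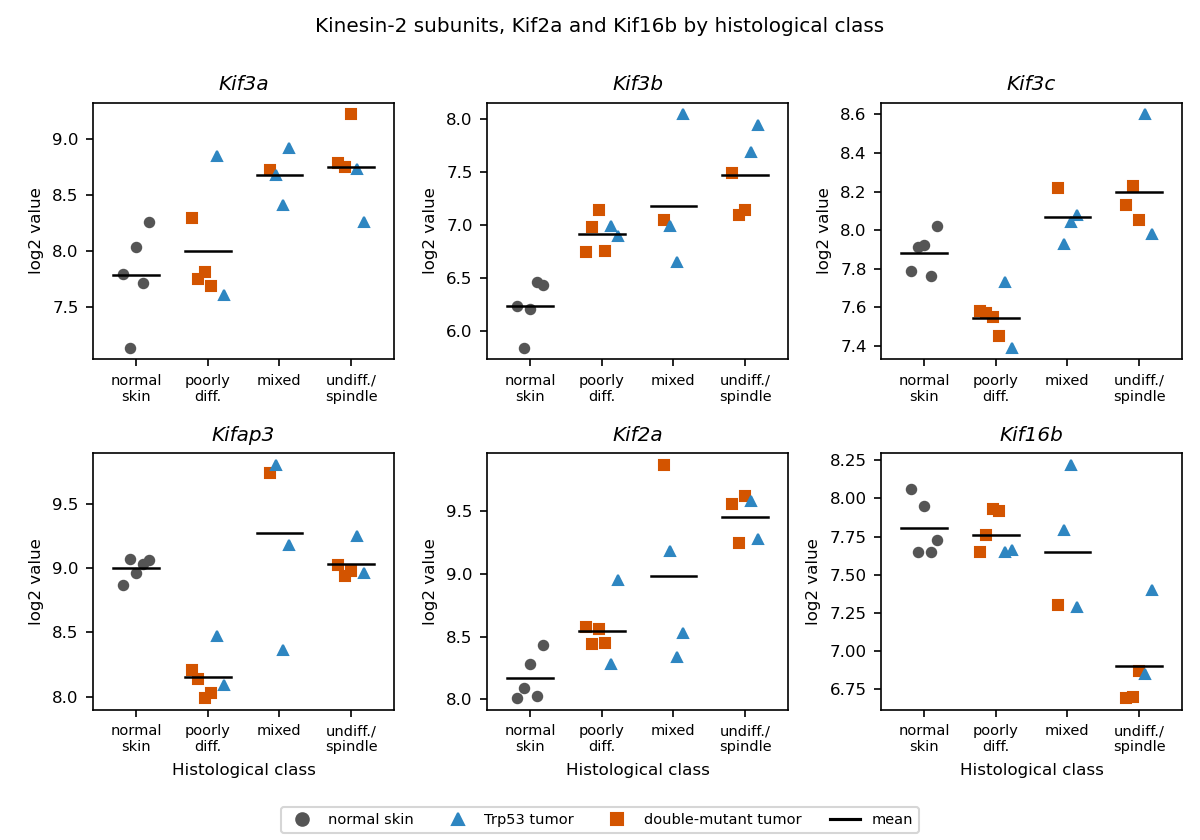
Log2 value of 6 kinesin genes in every sample by histological class, with points for samples shaped by genotype and a line for the mean of each class. Kifap3 and Kif3c are lower in all 6 poorly differentiated tumors than in the undifferentiated or spindle tumors, Kif2a is higher in the latter, and Kif16b is lower in them.

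The 4 mixed tumors were compared with each of the other classes. Against poorly differentiated tumors, 3 of 11 mitotic, 4 of 18 transport and 3 of 9 other kinesins rose, where 13.5% of all genes rose and 11.9% fell, and 0, 2 and 1 fell. Against undifferentiated or spindle tumors the numbers that rose were 0, 2 and 3, and 1 transport kinesin fell, where 9.15% of all genes rose and 10.2% fell. At an unadjusted p under 0.05 the mitotic number there was 1, Kif11, where 2815 of all 18193 genes rose and 2966 fell.

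Kif7, the kinesin that holds the Gli factors of the Hedgehog pathway at the tip of the cilium, was at 8.59 in double-mutant tumor 4 and at 8.70, 6.28 and 8.25 in Trp53 tumors 3, 5 and 7. The other 11 tumors ranged from 5.78 to 6.39 and the skin samples from 5.98 to 6.65. It rose by 1.87 ± 0.32 against poorly differentiated (adjusted p = 0.000358) and by 1.90 ± 0.34 against undifferentiated or spindle tumors (adjusted p = 0.000689). Trp53 tumor 5 was at the level of the other classes.

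Kif26a, an atypical kinesin without motor activity, showed the largest change, at 11.49 in double-mutant tumor 4 and 9.92, 8.4 and 11.13 in Trp53 tumors 3, 5 and 7. It rose by 2.03 ± 0.46 against poorly differentiated (adjusted p = 0.00332) and by 3.0 ± 0.48 against undifferentiated or spindle tumors (adjusted p = 0.000283). Trp53 tumor 5 was again lowest, inside the range of the poorly differentiated tumors of 7.29 to 9.25.

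Kif1a, a fast vesicle motor of axons, was at 7.86 in double-mutant tumor 4 and 8.07 in Trp53 tumor 7, and at 5.67 and 5.90 in Trp53 tumors 3 and 5. All other samples lay between 5.29 and 5.76. The log2 fold change was 1.42 ± 0.34 against poorly differentiated (adjusted p = 0.00486) and 1.48 ± 0.35 against undifferentiated or spindle tumors (adjusted p = 0.00627), and it was carried by 2 of the 4 tumors.

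Kifap3 rose in mixed tumors by 1.12 ± 0.20 and Kif3c by 0.53 ± 0.11 against poorly differentiated tumors, and Kif3a by 0.68 ± 0.24. The poorly differentiated tumors here are those of the comparison by grade, so both comparisons share them. Kifap3 was at 9.74, 9.80 and 9.18 in double-mutant tumor 4 and Trp53 tumors 3 and 7, and at 8.36 in Trp53 tumor 5. Of the 19 cilium transport genes 16 rose and 0 fell against poorly differentiated tumors, with a median of 0.94, where 13.5% of all genes rose and 11.9% fell. Kif6, a kinesin found in motile cilia, rose by 0.51 and 0.54 against the 2 classes, and it read low, between 4.44 and 5.78 over all samples. Kif16b rose by 0.75 against undifferentiated or spindle tumors, a call that was lost with the median over its probesets, at 0.56 (adjusted p = 0.122).

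Of the mitotic kinesins Kif11 rose by 1.05 ± 0.27, Kif20a by 1.01 ± 0.32 and Kif18a by 0.75 ± 0.26 against poorly differentiated tumors. Kif11 was at 8.32, 8.53, 8.29 and 8.58 in the mixed tumors and between 6.72 and 8.28 in the poorly differentiated tumors, so the groups only just did not overlap. The share of all genes without overlap between these classes was not counted either. The count of 3 fell to 1, Kif11, without double-mutant tumor 4, double-mutant tumor 7, Trp53 tumor 4 or Trp53 tumor 7. Among the members that fell, Kif26b had a log2 fold change of -1.06, Kif1c of -0.93 and Kifc3, a minus-end motor at cell junctions, of -0.89 against poorly differentiated tumors, and Kifc3 of -0.84 against undifferentiated or spindle tumors. With the median over probesets 1 transport kinesin fell in place of 2, and Kif1c stood at -0.36. Kif18a lost its call without double-mutant tumor 4, 6 or 7 or Trp53 tumor 3, 4, 6 or 7 and with the median over its probesets, at 0.41 (adjusted p = 0.0709), and Kif3a without double-mutant tumor 4, 6, 7 or 8 or Trp53 tumor 3, 6 or 7. Kif26b lost its call without Trp53 tumor 3 or 5, and Kif6 without Trp53 tumor 3 or 7. Against undifferentiated or spindle tumors Kif6 did so without Trp53 tumor 1, 2, 3 or 7 and with centred arrays, at 0.5 (adjusted p = 0.0518). Epithelial markers differed as well, with a mean of 6.63 to 11.45 in the mixed and 12.15 to 12.83 in the poorly differentiated tumors, and against undifferentiated or spindle tumors 7 of 8 epithelial markers were higher, with a median of 3.32, while 6 of 6 macrophage markers, with a median of -2.66, and 3 of 6 endothelial markers were lower. The part of these markers in the differences of the kinesins was not tested.

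**Figure D5:**
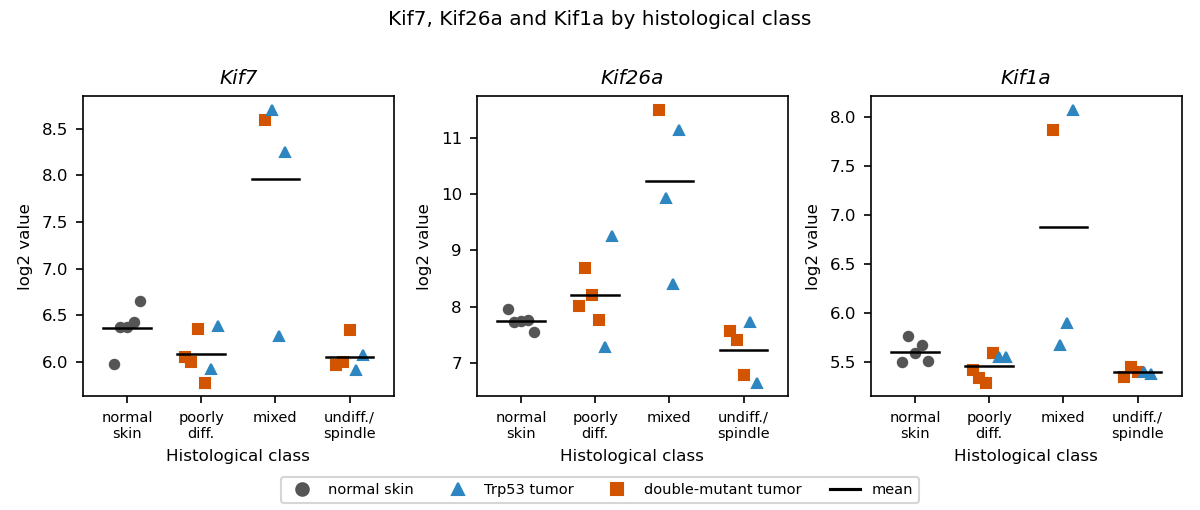
Log2 value of Kif7, Kif26a and Kif1a in every sample by histological class, with points shaped by genotype and a line for the class mean. Kif7 and Kif26a are high in 3 of the 4 mixed tumors and Kif1a in 2, and the fourth mixed tumor, Trp53 tumor 5, has Kif7 at 6.28.

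Loss of Rb1 in addition to Trp53 was compared as 8 double-mutant against 7 Trp53 tumors. Of the 38 kinesins 0 passed the test at an adjusted p under 0.05, as did 0.033% of all genes, and 0 passed at 0.1, as did 0.055%. At an unadjusted p under 0.05 there were 0 mitotic and 0 transport kinesins and 2 others, Kif26b and Kif27. Of all 18193 genes 483 rose and 480 fell at that unadjusted p. With histological class as a covariate 0 mitotic, 0 transport and 0 other kinesins passed after adjustment, where 3 of all 18193 genes rose and 5 fell. The methods' t-test called 0 kinesins after adjustment. The log2 fold changes of the 11 mitotic kinesins ran from -0.04 to 0.37, with standard errors of 0.09 to 0.35, and those of the transport kinesins from -0.51 to 1.14, with standard errors of 0.13 to 0.74.

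Kif2c was between 8.17 and 9.51 in double-mutant tumors, with a median of 8.63, and between 7.97 and 8.88 in Trp53 tumors, with a median of 8.51. The difference was 0.32 ± 0.23 (adjusted p = 0.968). Kif23 had a difference of 0.37 ± 0.25 (adjusted p = 0.966) and Kifc1 of 0.21 ± 0.20 (adjusted p = 0.969). For Kif2c the ranges overlapped, and the 3 highest tumors were double-mutant.

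Kif26b was between 6.73 and 8.68 in double-mutant tumors, with a median of 7.58, and between 6.18 and 7.39 in Trp53 tumors, with a median of 6.92. It had the smallest p of the members, with a difference of 0.90 ± 0.27 (adjusted p = 0.609). The genotypes differed in histology, with 3 mixed Trp53 tumors and 1 mixed double-mutant tumor. Kif26b was lower in mixed than in poorly differentiated tumors, at -1.06. Kif27, a relative of Kif7, had -0.29 ± 0.11 (adjusted p = 0.863) and Kif24 0.20 ± 0.17 (adjusted p = 0.969). Of the transport kinesins Kif1b had 0.33 ± 0.17 (adjusted p = 0.954), Kifc3 0.44 ± 0.25 (adjusted p = 0.954) and Kifc2 -0.37 ± 0.21 (adjusted p = 0.954).

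Whether the effect of genotype differed between grades was tested as an interaction over 11 tumors. At an adjusted p under 0.05 it passed for 0 kinesins and for 0.0% of all genes. At an unadjusted p under 0.05 it did so for 1 mitotic, 2 transport and 1 other kinesin. Of all 18193 genes 585 were higher and 698 lower at that unadjusted p. None of 23 mitotic partners passed between genotypes, with a median of 0.20.

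The remaining motor genes were counted between tumors and skin in the same way, where 17.7% of all genes rose and 18.0% fell. Of 16 cargo adaptors 1 rose, Mapk8ip3 by 1.19, and 5 fell, Klc3 with -1.97 among them. Of 19 dynein and dynactin genes 0 rose and 3 fell, among them Ndel1, a dynein regulator, with -0.66 and Dctn3 with -0.56, and the median was 0.03. Of 19 cilium transport genes 5 rose and 1 fell, with Ift74 at 1.40 and Ift46 at 0.92.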

How the data were processed

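Total RNA of 5 skin samples and 15 tumors had been hybridized to 1 array each. The deposited log2 values were made by the authors with RMA (version not given in the sources used here), which corrects background, normalizes between arrays and summarizes probes into probesets. From 45101 probesets, 64 Affymetrix controls were left out, and 34945 had 1 gene symbol. Of several probesets of a gene the brightest on average was taken, giving 18193 genes, and 102 probesets belonged to members. Arrays hold no counts, so their number limits the precision.

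Each comparison was fitted over all 18193 genes with limma 3.58.1 (lmFit and eBayes, R 4.3.3). P-values were two-sided, adjusted after Benjamini and Hochberg and called under 0.05, and the fit was tested on simulated data. Classes against skin, and mixed tumors, came from 1 fit of 4 classes over 20 arrays. Standard errors follow ±. Python 3.11.15, pandas 2.3.3 and matplotlib 3.10.9 were used for counts and plots. Alternatives were the median over probesets, centring of arrays, a mean of at least 5, other covariates, samples left out, a replicate block and the methods' t-test and thresholds.

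The members, lists and alternatives were chosen with earlier results of these data known. Genes were described by sample where their change was largest (4 mitotic and 4 transport against skin) or their p smallest (2 others against skin, 3 of each class by grade and genotype). From each list the 2 called members with the largest change were named. Values by sample for mixed tumors, and those of Kif23, Kif3a, Kif3b and Kif21a by grade, were given after they were seen. Promoter sequences came from RefSeq, and those of Kif20a, Kif5a, Kif5b, Kif13b, Kif21b, Kifc2 and Kifc3 were not used here.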

Additional observations from a re-analysis of the deposited data

Results flagged for a closer look

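In 164 sets of values, 4 to 6 samples of a class for each member and for each role's median, 8 held a sample far from the rest, and chance alone gives about 1 in 20. Among skin samples Kif23 was at 7.61 in sample 5 (next 7.34), Kif1c at 10.78 in sample 1 (next 10.69), Kif5b at 9.11 in sample 2 (next 10.23), the sample with the largest Actb 3' to 5' difference of 1.19, and the median difference over the other kinesins at 0.17 in sample 1 (next 0.02). Among undifferentiated or spindle tumors Kifap3 was at 9.25 in Trp53 tumor 1 (next 9.02) and Kif16b at 7.40 in Trp53 tumor 2 (next 6.87). Among mixed tumors Kif5a was at 5.85 in double-mutant tumor 4 (next 5.23) and Kif13b at 7.71 in Trp53 tumor 5 (next 7.15). Without skin sample 2 the number of transport kinesins that rose in tumors went from 5 to 2.

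The mean differences of Kif3c and Kifap3 from skin were negative in poorly differentiated and positive in undifferentiated or spindle tumors, although for Kifap3 the latter was only 0.03 and did not pass the test. The difference between these classes, tested with limma, was 0.65 for Kif3c (adjusted p = 0.00252) and 0.87 for Kifap3 (adjusted p = 0.000158).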

How the results depend on the processing

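Of 861 recomputed values of single named genes, 820 kept their direction and their side of the threshold, 35 kept the direction but lost the call, 4 gained a call and 2 changed sign. Those were Kif26a by grade, at 0.36 with the mixed tumors counted as undifferentiated, and Kif1b by genotype, at -0.05 with the median over probesets. Under the replicate block 9 mitotic kinesins rose, 4 transport kinesins rose and 5 fell in tumors, and 0 mitotic and 0 transport kinesins passed between genotypes. Of all 18193 genes 3047 rose and 3034 fell in tumors under this block, and 0 passed between genotypes. The correlation of deviations between same-numbered tumors of the genotypes ran from -0.478 to 0.64. It was highest for numbers 6, at 0.64, and 1, at 0.628, where both tumors had the same histology. Whether the numbers pair the samples can therefore not be told from it. A block by grade could not be fitted because the classes share too few numbers.

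At the methods' threshold of 3e-07 for tumors against skin, 4 of 11 mitotic kinesins rose, and of 18 transport kinesins 0 rose and 1 fell. Of all 18193 genes 143 rose and 315 fell at that threshold. The threshold was applied here to the adjusted limma p-values of genes. The paper applied it to a t-test of probesets and required a second test besides, so its own criteria may give other counts. With the median over probesets 1 transport kinesin rose and 3 fell against skin, 2 rose and 1 fell by grade, and 1 fell in mixed against poorly differentiated tumors. By the methods' t-test 2 transport kinesins rose and 1 fell by grade, and with the mixed tumors counted as undifferentiated 0 fell.

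Leaving out each sample in turn, the mitotic kinesins that rose in tumors stayed at 9. Transport kinesins that rose ranged from 2 to 5 in tumors against skin, from 2 to 4 in poorly differentiated tumors against skin and from 2 to 4 by grade, and those that fell by grade from 1 to 2. The mitotic kinesins higher in mixed than in poorly differentiated tumors ranged from 1 to 3. Leaving out samples in the comparisons of histological classes, the alternatives for mixed tumors, and tumors against skin without the 4 mixed tumors (9 mitotic and 4 transport kinesins rose, 5 fell), were chosen after seeing the data. Without the mixed tumors 3493 of all 18193 genes rose and 3527 fell. The causes were not tested. Arrays without detection calls do not show which low probesets were above background.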

Other observations

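The genes of the Hedgehog pathway, in which Kif7 acts, were read after the values of Kif7 were seen, so they are given as values with no test. Gli1, a target and effector of the pathway, was at 13.98 in double-mutant tumor 4, at 12.47, 4.05 and 8.52 in Trp53 tumors 3, 5 and 7, and at 6.78 or below in all other samples. Ptch1, the receptor and a target, was at 13.80, 13.53, 8.96 and 12.84 in these 4 mixed tumors and at 9.58 or below elsewhere. Hhip, a target that binds the ligands, was at 12.47, 11.38, 4.43 and 11.78, and at 7.18 or below elsewhere. Gli2 was at 10.96, 9.89, 6.14 and 13.97, and at 8.67 or below elsewhere. The 3 mixed tumors with Kif7 above 8 were those with high Gli1, Gli2, Ptch1 and Hhip, and Trp53 tumor 5 had none of them high. Sufu, at 9.03, 8.19, 8.69 and 8.56 in the mixed tumors, and Smo, at 9.85, 10.03, 9.37 and 9.33, differed less from the other tumors, where they reached 8.42 and 9.32. Gli3, at 8.81, 8.75, 8.07 and 7.11, and Shh, at 5.75, 6.12, 6.91 and 6.24, were not high in the mixed tumors.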
